A study of Mus musculus with 304 samples.

Results

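Dentate granule cells sampled 14 days after an injection of kainate were compared, gene by gene, with granule cells of mice that had received no injection. The members were the cells labelled as granule cells at 14 days (Kainate_DG, 29 cells) and the uninjected granule cells (DG, 31 cells) that carry the quality control label Passed, which makes 60 of the 304 cells the series labels and of the 291 with a column of counts. Each cell is 1 Patch-seq library, made from the cytosol that a patch pipette drew out of 1 neuron. In the kainate group, 70 nl of 5 mM kainic acid had been microinjected into the hippocampus, and the labels do not say on which side of the brain these cells lay. Control cells came from non-injected mice rather than from mice given vehicle, and they share no other treatment with the kainate cells. Neither group carried a transgene or a virus according to the labels, and the labels name no strain, age or sex.

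Granule cells are the principal neurons of the dentate gyrus, the gate through which cortical input enters the hippocampus, and their mossy fibre axons excite hilar mossy cells and pyramidal cells of area CA3. Kainate opens ionotropic glutamate receptors, provokes seizures and, over the following weeks, is used as a model of temporal lobe epilepsy with loss of neurons, gliosis and spread of the granule cell layer. Immediate early genes mark recent firing in these cells, and neuropeptides stored in dense-core vesicles, such as neuropeptide Y and enkephalin, are known from seizure models as slower markers of raised activity.

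Because no label ties a cell to a mouse, each group counts as 1 sample, no difference between groups was tested and no p-value can be given. Levels are in CPM (counts of a gene per 1e6 reads), from reads pooled over all cells of the group, and are given as day 14 against control. A log2 ratio was taken after adding 1 CPM to both levels, and folds come from CPM without that addition. The counting interval of a level, an exact Poisson interval at 95% that covers the counting of reads only, reached in the higher group at most 11.3% to either side for any gene that passed the level filter (a measured gene), and is wider for genes with few reads. Depth ran from 3316541 to 16659669 reads per cell (median 7615492) at day 14 and from 32487 to 7923833 (median 1738610) in control cells. Shares said to be of thinned cells were therefore taken after each cell was thinned to 100000 reads, which left out 2 control cells, and other counts and shares of cells are at full depth. Day 14 cells carry titles of a K series and 22 of the 31 control cells titles that start with J, so kainate and the series of cells cannot be told apart. Over measured genes, 1 cell supplied a median of 27.7% of a gene's reads at day 14 and 35.9% in controls, so a level can rest on few cells.

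The granule cell label was checked against its markers. Prox1, the transcription factor that fixes granule cell identity, was read in 19 of 29 day 14 cells and 19 of 31 control cells, at 230.0 against 217 CPM. Of 10 granule cell markers, day 14 cells held 1 to 8 (median 4) and control cells 1 to 9 (median 6), and no cell held none. Transcripts of microglia, the immune cells of the brain, were present in both groups, with 19 of 22 homeostatic markers measured and none of the 22 at 0 at day 14. Their summed level was 7325 against 4302 CPM, ran from 0 to 30566 CPM over day 14 cells and from 0 to 17102 CPM over control cells, and reached 1000 CPM in 20 of 29 and 18 of 31 cells. Among the cells under 1000 CPM, the median cell held 5.87 CPM at day 14 and 290 CPM in controls, so those cells were not matched in microglia RNA. None of 16 macrophage and T cell markers reached the level of a measured gene. Of 19 astrocyte markers 10 were measured and 5 of them were at least 2-fold lower at day 14, with Aldoc at 3.84 against 95.2 CPM and Slc1a3, a glutamate transporter, at 1.72 against 103.3 CPM, while Gfap stood at 122.2 against 23.6 CPM (0 against 22.6 CPM in the cells under 1000 CPM of microglia markers).

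Genes were taken as measured when they were read in 20% or more of the day 14 or the control cells and reached 5 CPM in 1 of the groups, which left 9469 genes. Of these, 2258 (23.8%) were at least 2-fold higher and 1495 (15.8%) at least 2-fold lower 14 days after kainate, and the median log2 ratio over all measured genes was 0.14. These shares are the background against which each gene list is read. A gene could pass the filter through either group, so a member read in 1 group only had to differ, and list medians are descriptions. Medians of the peptide precursors and of the immune lists lay above that of all genes, and medians of the granule cell markers, activity-regulated transcription factors and clock genes lay below it.

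**Figure D1:**
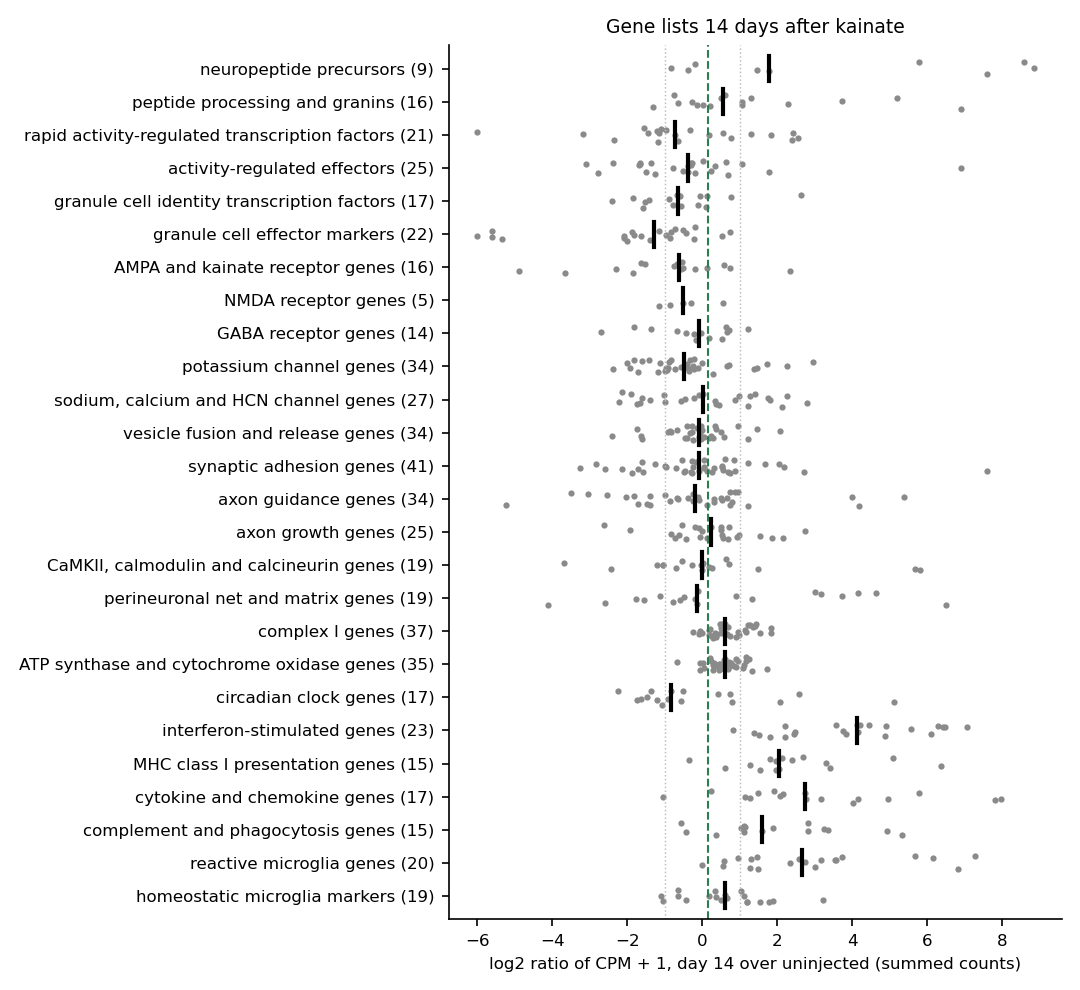
Log2 ratio (CPM + 1, day 14 over uninjected, summed counts) of each measured member of 26 gene lists (grey points, 1 per gene; number measured in brackets), with the list median (black bar), the median of all measured genes (dashed line, 0.14) and the 2-fold limits (dotted lines). Of the lists plotted, interferon-stimulated genes have the highest median (4.13) and granule cell effector markers the lowest (-1.28).

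Neuropeptide precursors had the highest median of the lists of neuronal genes. Of 27 precursors listed, 9 were measured. Of those, 6 (66.7%) were at least 2-fold higher and 0 at least 2-fold lower, with a median log2 ratio of 1.77. Among the higher ones, Npy, Cartpt, Trh and Pdyn were read in too few control cells to pass the filter there. They counted as measured through day 14 alone. The filter thus favoured higher members, and the share and the median of this list are descriptions. Npy (GRCm38 chromosome 6, 49822710 to 49829507, plus strand) codes for neuropeptide Y, an inhibitory peptide that in the healthy dentate gyrus is made mainly by hilar interneurons. Its lowest, median and highest level over day 14 cells was 0, 53.9 and 10219 CPM, and over control cells 0, 0 and 73.4 CPM. A read was found in 65.5% of day 14 cells (exact Clopper-Pearson interval 45.7% to 82.1%) and 6.45% of control cells (0.791% to 21.4%), or in 58.6% against 6.90% of thinned cells, and 10 of the 29 day 14 cells had no read. Penk (GRCm38 chromosome 4, 4133531 to 4138819, minus strand), the precursor of enkephalins, reached 0, 213 and 43112 CPM over day 14 cells (lowest, median, highest) and 0, 0 and 619 CPM over controls. The group levels were 7604 against 38.5 CPM (intervals 7594 to 7615 and 37 to 39.98), 198-fold higher, with reads in 23 of 29 cells against 7 of 31.

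Cartpt (GRCm38 chromosome 13, 99898489 to 99901091, minus strand), which codes for the CART peptide of appetite and stress circuits, was the precursor found in the largest share of day 14 cells. Its lowest, median and highest level was 0, 636 and 11901 CPM at day 14 and 0, 0 and 1085 CPM in controls, and a read was found in 86.2% of day 14 cells (exact Clopper-Pearson interval 68.3% to 96.1%) and 6.45% of control cells (0.791% to 21.4%), or in 75.9% against 6.90% of thinned cells. The group levels were 2453 against 43.9 CPM (intervals 2447 to 2459 and 42.4 to 45.6), 55.8-fold higher, and 1 control cell held 92.3% of the control reads. Trh, the precursor of thyrotropin-releasing hormone, was more restricted. It stood at 380.2 CPM with 0 reads in all 31 control cells, which allows a share of up to 9.68% (3 of 31 cells), and was found in 11 of 29 day 14 cells, where 1 cell supplied 75.1% of the reads. Pdyn, the dynorphin precursor and a normal granule cell peptide, stood at 156 against 55.6 CPM and was read in 11 of 29 cells against 5 of 31.

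Cells with reads of several precursors were counted. Genes that are each read in many day 14 cells share cells by those shares alone. Whether they met more often than the shares give was not tested. With every cell thinned, at least 3 of the 4 genes Npy, Penk, Cartpt and Trh were read in 15 of 29 day 14 cells (10 cells with 3 and 5 with 4), in 0 of 29 control cells and in 5 of 58 ipsilateral cells at day 1. Of those 4 genes, 20 of 29 thinned control cells held none, against 2 of 29 day 14 cells. Cartpt and Penk shared 18 day 14 cells and 0 control cells. Cells at day 1 are set beside day 14 with the same control cells in common. Npy stood at 334 CPM at day 1, Penk at 7069.7 CPM and Cartpt at 48.8 CPM. Penk was near its day 14 level at day 1, while Cartpt at day 1 was near its control level and Trh was at 8.09 CPM.

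Not all precursors lay on that side. Cck, the cholecystokinin precursor, stood at 164 against 188 CPM in the sums, but was read in 24.1% against 75.9% of thinned cells. Its lowest, median and highest level was 0, 0 and 1452 CPM at day 14 and 0, 115.8 and 919 CPM in controls, so most day 14 cells had no read while 1 cell supplied 52.8% of the reads. Bdnf, the activity-dependent neurotrophin, differed little, at 676 against 888 CPM with median cells at 572 and 558 CPM. Grp, gastrin-releasing peptide, stood at 29.1 against 52.5 CPM. Over the 29 day 14 cells, which differ in depth, the Spearman rank correlation between the summed precursors and the summed microglia markers was -0.04. Interneurons also make Npy. The 15 interneuron markers in the table summed to 1186 against 700.4 CPM, with median cells at 849.6 and 286 CPM, and Gad1 made up most of both sums (1072 against 671 CPM). Of the 15 markers, 10 had 0 day 14 reads and 6 had 0 control reads. Those at 0 at day 14 included Pvalb, Sst and Erbb4, and Slc32a1, the vesicular GABA transporter, had 1 read in each group. The part of interneuron RNA in the precursor levels was not tested.

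**Figure D2:**
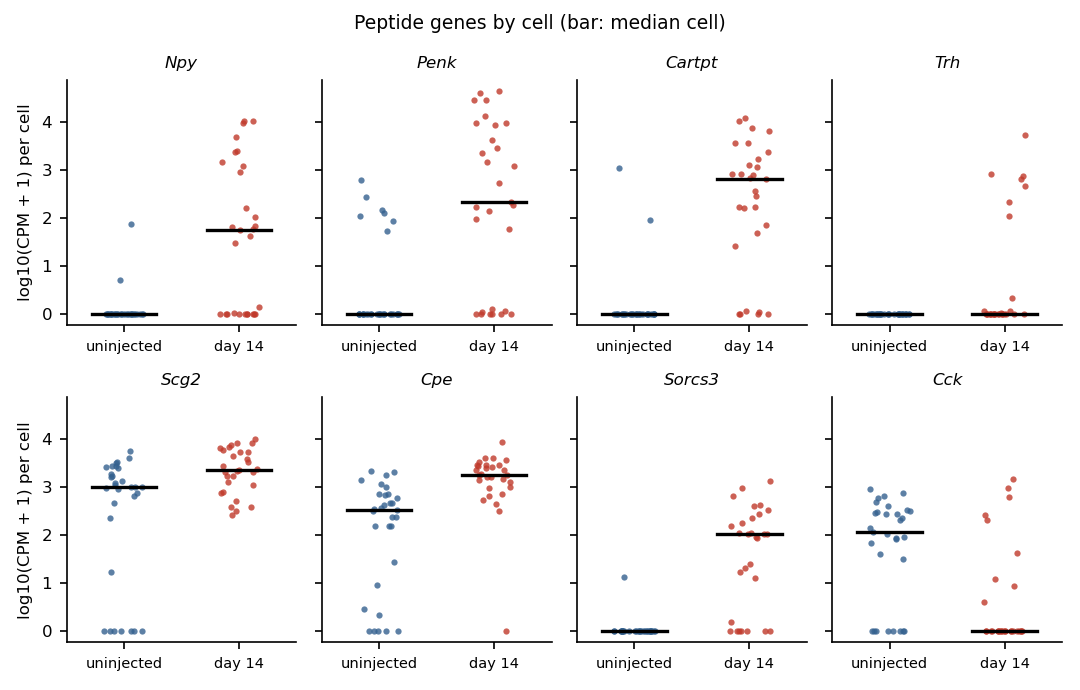
Level of 8 peptide-related genes in each cell, as log10(CPM + 1), for 31 uninjected cells (blue) and 29 day 14 cells (red), with the median cell as a bar. Npy, Penk, Cartpt and Sorcs3 have median control cells at 0, Scg2 and Cpe are read in nearly all day 14 cells, and Cck has its median at 0 at day 14 only.

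Genes that load, cut and sort peptides were partly higher. Of 16 measured members, 7 (43.8%) were at least 2-fold higher and 1 at least 2-fold lower, with a median of 0.55. The 3 sorting receptors Sorcs1, Sorcs2 and Sorcs3, of the Vps10 family that steers membrane proteins and propeptides, led them, at 38.4 against 0.0744 CPM, 112.9 against 7.68 CPM and 171 against 0.432 CPM. Sorcs3 was read in 69% against 3.45% of thinned cells, and its lowest, median and highest level was 0, 102.3 and 1347 CPM at day 14 and 0, 0 and 12.3 CPM in controls. Cpe, carboxypeptidase E, which trims the ends of propeptides, ran over 0, 1760.4 and 8480.1 CPM at day 14 and 0, 329 and 2150.5 CPM in controls (lowest, median, highest), 4.87-fold higher. Scg2, the granin secretogranin II, was read in all 29 day 14 cells and 24 of 31 control cells and stood at 3823 against 1849 CPM, and the granin gene Chga at 426 against 173 CPM. In cells low in microglia markers Sorcs1 was not higher, at 0.0127 against 0.210 CPM. The prohormone convertases Pcsk1 (40.9 against 45.6 CPM) and Pcsk2 (78.4 against 196 CPM) and the granins Chgb (395 against 476 CPM) and Scg3 (135 against 213 CPM) were not higher, although Pcsk2 had a log2 ratio of 0.17 against the 9 controls without J titles.

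Promoter sequence was read for these precursors because a cyclic AMP response element (CRE, TGACGTCA), the site of CREB and CREM proteins, is known in several peptide genes. In the 250 bases before the start of transcription in RefSeq the full element was found on either strand in 1 of the 6 measured precursors with a window, in 3.38% of 7211 measured genes and in 1.55% of all 32851 windows. It was found in 60 of 1730 measured genes at least 2-fold higher (3.47%) and in 31 of 1125 at least 2-fold lower (2.76%), both near the share of all measured genes. The matches in Cartpt and in Scg2 are shown as examples, picked because both genes were higher at day 14. The element is in capitals (RefSeq windows, GRCm38.p6, written 5′ to 3′ on the strand of the gene). GENCODE starts both genes farther upstream, Cartpt by 408 bases and Scg2 by 94, so that both stretches lie within an exon there, and only 30 bases of each are given.
Cartpt, chr13:99900777-99900806, minus strand: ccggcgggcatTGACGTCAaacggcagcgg
Scg2, chr1:79440076-79440105, minus strand: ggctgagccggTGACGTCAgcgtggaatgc
By the RefSeq starts, the element of Scg2 begins 68 bases before the gene and that of Cartpt farther upstream. A match describes the letters only. Crem, which codes for activators and repressors that bind this element, stood at 56.8 against 8.93 CPM and was read in 34.5% against 6.90% of thinned cells. A link between Crem and these genes was not tested.

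Rapid activity-regulated transcription factors were on balance lower, but not uniformly so. Of 21 measured members, 5 (23.8%) were at least 2-fold higher and 9 (42.9%) at least 2-fold lower, against 23.8% and 15.8% of all measured genes, and the median was -0.74. Npas4 (GRCm38 chromosome 19, 4984355 to 4990316, minus strand), which firing induces and which sets up inhibitory synapses, lay furthest down. Its lowest, median and highest level was 0, 0 and 60.7 CPM at day 14 and 0, 1.76 and 1278 CPM in controls, with reads in 4 of 29 cells against 17 of 31 (3.45% against 55.2% of thinned cells). The group levels were 3.37 against 282 CPM (intervals 3.15 to 3.60 and 278 to 287), and 1 cell held 96.8% of the day 14 reads. All 4 Egr zinc finger genes were lower, with Egr1 at 698 against 1907 CPM, Egr2 at 8.97 against 49.7 CPM, Egr3 at 3.998 against 44.6 CPM (6.21 against 3.65 CPM in cells low in microglia markers) and Egr4 at 355 against 796 CPM. The nuclear receptors Nr4a2 and Nr4a3 stood at 237 against 513 CPM and 66.7 against 157 CPM, and Fosb at 35.7 against 106.8 CPM. Srf, the factor that drives many of these promoters together with its cofactors, was lower as well, at 10.5 against 100.1 CPM.

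Other members of the same class stayed near or above control. Fos, the classic marker of recent firing, stood at 1063 against 1348 CPM and was read in 89.7% against 82.8% of thinned cells. Its lowest, median and highest level was 0, 834 and 2872 CPM at day 14 and 0, 1160.0 and 8291 CPM in controls. The groups overlapped, but the highest control cells lay above the day 14 range. Jun (264 against 155 CPM) and Atf3 (676 against 466 CPM), a stress-induced partner of Jun, were less than 2-fold apart. Above control lay Crem, Ier2 (161 against 44.6 CPM, 69% against 20.7% of thinned cells) and the Krüppel-like factor Klf10 (164 against 30.5 CPM, 58.6% against 24.1%). At day 1, Npas4 stood at 51 CPM, Egr1 at 1314 CPM and Fos at 802 CPM against the same control cells. Set against the 9 control cells without a J title, the list median came to 0.07 rather than -0.74, and Egr1 (0.15) and Egr4 (0.22) were no longer lower.

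Effectors of activity were on balance lower, with Vgf and Dusp5 among the exceptions. Of 25 measured members, 3 (12%) were at least 2-fold higher and 9 (36%) at least 2-fold lower, with a median of -0.38. The shares over all measured genes were 23.8% and 15.8%. Arc, which removes AMPA receptors from synapses, ran over 0, 20.7 and 2342 CPM at day 14 and 0, 1389 and 5836 CPM in controls, 6.92-fold lower. Ptgs2, the inducible cyclooxygenase, stood at 43.8 against 384 CPM and Homer1, a postsynaptic scaffold with a short inducible form, at 262 against 627 CPM. Synpo, an actin regulator of the spine apparatus, stood at 19.4 against 105.96 CPM and Rgs2, a brake on G protein signalling, at 267 against 847 CPM. Higher or near control were the MAP kinase phosphatases Dusp5 (81.1 against 38.7 CPM) and Dusp6 (452 against 282 CPM), the secreted Vgf (357 against 104.3 CPM) and the pentraxin Nptx2 (366 against 238 CPM), whose relative Nptx1 was lower (122.9 against 349.9 CPM). In the day 1 cells, compared with the same controls, Ptgs2 stood at 650.4 CPM, Synpo at 351 CPM and Arc at 1766 CPM. Inhba, the activin subunit, stood at 727 CPM at day 1 and at 46.6 against 46.4 CPM at day 14.

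**Figure D3:**
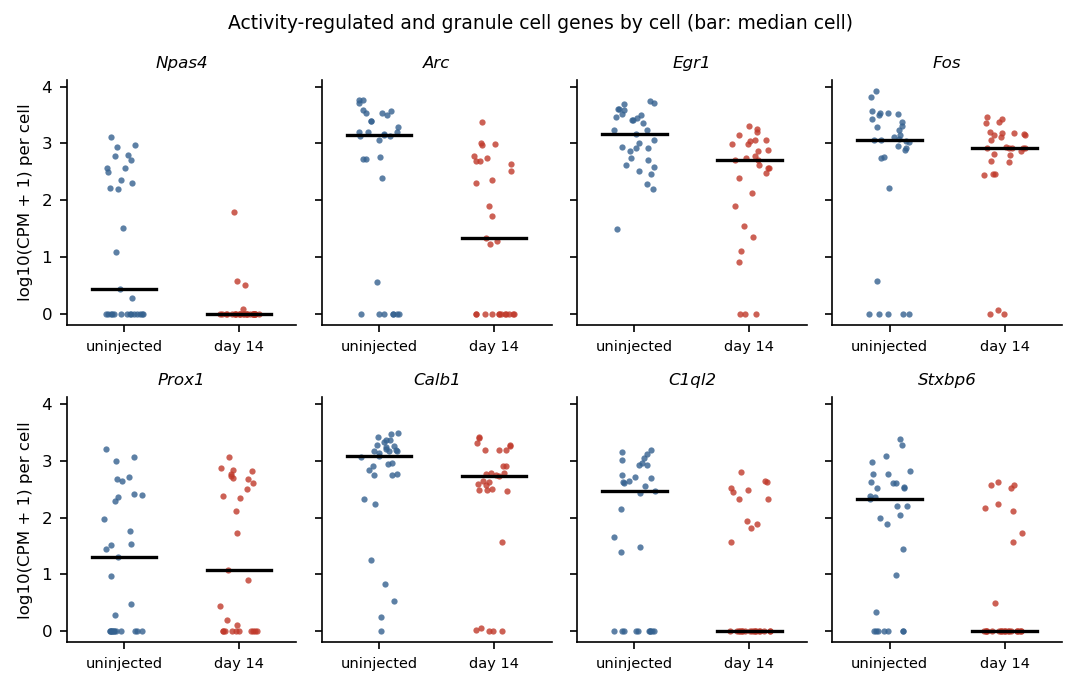
Level in each cell, as log10(CPM + 1), of 4 activity-regulated genes (upper row) and 4 granule cell genes (lower row) for 31 uninjected cells (blue) and 29 day 14 cells (red), with the median cell as a bar. Npas4 is read in 4 of 29 day 14 cells and 17 of 31 control cells. Fos and Prox1 overlap between the groups, though the highest Fos level is 2872 CPM at day 14 and 8291 CPM in controls.

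Granule cell effector markers were lower as a group while part of the identity programme was level. Of 22 measured effector markers, 0 were at least 2-fold higher and 12 (54.5%) at least 2-fold lower, against 15.8% of all measured genes, with a median of -1.28. Plk5, a kinase-dead polo-like protein of neurons, was read in 2 of 29 cells against 17 of 31 and stood at 1.44 against 157 CPM. Tdo2, tryptophan dioxygenase, was read in 1 of 29 cells against 9 of 31 (1.84 against 114.1 CPM), and Cygb, the globin, had 1 read in 1 day 14 cell and was read in 17 of 31 control cells, 12621-fold lower (counting interval 2264 to 498640.0). C1ql2, a secreted synapse organiser of mossy fibres, ran over 0, 0 and 629 CPM at day 14 and 0, 289 and 1509.7 CPM in controls. Stxbp6, a SNARE regulator, stood at 84.2 against 339.9 CPM, Il1rap, the interleukin 1 receptor accessory protein, at 114.02 against 421 CPM, and Dock10, a guanine nucleotide exchange factor, at 132 against 411 CPM. Calb1, calbindin, the calcium buffer whose loss from granule cells is known in epilepsy models, was read in 26 of 29 and 30 of 31 cells and stood at 702 against 1249 CPM. Trpc6 (321 against 193 CPM) and Ntng1 (100.3 against 69.3 CPM) lay above control by less than 2-fold.

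Among 17 measured identity factors, 1 was at least 2-fold higher and 5 (29.4%) were at least 2-fold lower, with a median of -0.64. Prox1, as given above, Klf9 (132 against 122.2 CPM) and Mef2c (398 against 413 CPM) were close to control. Rfx3, a granule cell factor of the RFX family, stood at 123.3 against 657 CPM, Zbtb20, which separates hippocampal subfields, at 503 against 1359.6 CPM, and Neurod1, the differentiation factor of young granule cells, at 48 against 175 CPM. Neurod6, a factor of pyramidal cells, stood at 82.3 against 12.4 CPM and was read in 6 cells of each group, with 0.0127 against 34.7 CPM in cells low in microglia markers. Markers of pyramidal cells split, with Coch (32 CPM) and Man1a (19.6 CPM) at 0 reads in controls, Bok, a gene of the apoptosis machinery, at 256 against 29.7 CPM, but Lypd1 at 9.85 against 123.4 CPM and Cpne4 at 6.66 against 84 CPM.

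Id2, the inhibitor of basic helix-loop-helix factors that the study overexpressed elsewhere, stood at 422 against 127.9 CPM, and over cells at 0, 241 and 2219.8 CPM at day 14 and 0, 0 and 735 CPM in controls (lowest, median, highest). It was read in 79.3% against 34.5% of thinned cells. Of 16 measured genes of its list, 7 (43.8%) were at least 2-fold higher and 3 (18.8%) at least 2-fold lower, with a median of 0.68, which was -0.26 against the series' granule cells given a GFP virus and -0.16 in cells low in microglia markers. Of the E proteins, which Id proteins bind, Tcf3 stood at 43.6 against 16.2 CPM (0 against 6.58 CPM in cells low in microglia markers) and Tcf12 at 19.7 against 7.52 CPM (log2 ratios of -0.78 against GFP virus cells and -0.20 in cells low in microglia markers), while Tcf4 was level at 490.0 against 474 CPM. Npas2, a clock factor of the same class, stood at 56.4 against 0.670 CPM, Hes6 at 54.2 against 10.2 CPM and the Notch target Hey1 at 24 against 199 CPM.

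Glutamate receptor genes were mostly below control. Of 16 measured AMPA and kainate receptor genes with their auxiliary subunits, 1 was at least 2-fold higher and 6 (37.5%) were at least 2-fold lower, with a median of -0.62. Gria4, a subunit with fast kinetics that is low in adult granule cells, was the exception, at 165 against 31.5 CPM, and was read in 58.6% against 10.3% of thinned cells. Gria1 stood at 209 against 607 CPM, over 0, 105.7 and 1096 CPM at day 14 and 0, 597 and 2305 CPM in controls (lowest, median, highest), and Gria2, the subunit that blocks calcium entry, was less apart, at 1230.2 against 1781 CPM. Of the kainate receptor subunits, Grik2 stood at 56 against 203 CPM and Grik3 at 0.569 against 45.3 CPM in 1 of 29 cells against 9 of 31. Grik4 stood at 19.9 against 63.9 CPM, but its log2 ratio was 0.38 against the 9 controls without J titles and 0.24 against GFP virus cells. Of the NMDA receptor subunits, Grin1 stood at 210.2 against 300.4 CPM and Grin2b at 157 against 283 CPM, while Grin2a was read in 65.5% against 82.8% of thinned cells. Of the metabotropic receptors, Grm5 was lower (124.2 against 280.1 CPM) and Grm7, a presynaptic receptor, was higher (174 against 77.8 CPM).

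Inhibitory receptors showed no common direction, with 1 of 14 measured genes (7.14%) at least 2-fold higher, 3 (21.4%) at least 2-fold lower and a median of -0.10. The shares over all measured genes were 23.8% and 15.8%. Gabra2, an alpha subunit of the GABA-A receptor, stood at 72.3 against 258 CPM. Gphn, gephyrin, the scaffold of inhibitory synapses, stood at 103.7 against 44.2 CPM, and Gabrd, the subunit of tonic inhibition, was level at 51.9 against 58.3 CPM. Both chloride cotransporters that set the direction of GABA currents were lower, Slc12a5 (KCC2, which exports chloride) at 71.8 against 187 CPM and Slc12a2 (NKCC1, which imports it) at 14.7 against 101.02 CPM. The enzymes that make GABA differed in pattern: Gad1 was read in nearly all day 14 cells and stood at 1072 against 671 CPM, while Gad2 was read in 8 of 29 cells against 2 of 31, at 111.3 against 0.104 CPM.

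Ion channel genes were mixed by family. Of 34 measured potassium channel genes, 5 (14.7%) were at least 2-fold higher and 10 (29.4%) at least 2-fold lower, with a median of -0.50. The shares over all measured genes were 23.8% and 15.8%. Kcna1, the Kv1.1 subunit of axons, stood at 98.7 against 304 CPM, Kcnj2, the inward rectifier Kir2.1, at 14.5 against 79.98 CPM, the BK channel subunit Kcnmb4 at 14.5 against 62 CPM and the leak channel Kcnk2 (TREK-1) at 10.6 against 43.4 CPM, although Kcnk2 was 2-fold higher against the 9 controls without J titles. Higher were Kcnd2, the A-type channel Kv4.2 (99.7 against 29.4 CPM), its partners Kcnip3 (284 against 58.3 CPM) and Kcnip4 (178 against 63.7 CPM), and the M current subunit Kcnq3 (86.1 against 32.5 CPM). Of 27 measured sodium, calcium and HCN channel genes, 8 (29.6%) were at least 2-fold higher and 8 (29.6%) at least 2-fold lower, with a median of 0.01. Scn1a, a sodium channel of the axon, stood at 113.7 against 31.8 CPM, against Scn3a at 50.9 against 193 CPM and Scn3b at 129 against 264 CPM. Of the calcium channels, Cacna1e (R type) stood at 73.7 against 346 CPM and Cacna1h (T type) at 51.9 against 161 CPM, Cacna1c (L type) was read in 27.6% against 65.5% of thinned cells, and the T-type gene Cacna1g stood at 52.3 against 10.1 CPM.

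Genes of calcium signalling kinases lay on both sides of control. Of 19 measured members of the CaMKII, calmodulin and calcineurin list, 3 (15.8%) were at least 2-fold higher and 5 (26.3%) at least 2-fold lower, with a median of -0.02. The shares over all measured genes were 23.8% and 15.8%. Camk2a stood at 88.7 against 185 CPM, Camk2b at 487 against 1128 CPM, Camkk1, the kinase upstream of CaMKI and CaMKIV, at 114.9 against 625 CPM, and Camk2n1, the CaMKII inhibitor, at 8.95 against 128.2 CPM (27.6% against 72.4% of thinned cells). Camk2d, an isoform that is low in neurons, stood at 86.4 against 0.700 CPM. The calmodulin gene Calm2 lay less than 2-fold above control (3678 against 3056 CPM), Ppp3ca, the calcineurin subunit, stood at 968 against 1994 CPM, and Nfatc2, a transcription factor that calcineurin activates, at 5.79 against 52 CPM.

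The machinery of transmitter release was close to control. Of 34 measured release genes, 3 (8.82%) were at least 2-fold higher and 4 (11.8%) at least 2-fold lower, both below the shares of all genes, with a median of -0.09. Snap25, a SNARE of the plasma membrane, stood at 2379.9 against 1948 CPM, Vamp2, the vesicle SNARE, at 939.8 against 907 CPM and Slc17a7, the vesicular glutamate transporter VGLUT1, at 645 against 549.9 CPM. The complexin genes lay on opposite sides, Cplx1 at 514 against 221 CPM and Cplx2 at 40.5 against 138 CPM. Slc30a3 (ZnT3), which loads zinc into mossy fibre vesicles, stood at 98.3 against 308 CPM, Syn2 at 322 against 985 CPM and the active zone gene Erc2 at 51.4 against 276 CPM.

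Genes of synaptic adhesion and axon guidance spread more widely than the release genes. Of 41 measured adhesion genes, 6 (14.6%) were at least 2-fold higher and 9 (22%) at least 2-fold lower. The shares over all measured genes were 23.8% and 15.8%. Cntn4, a contactin of axons, was read in 12 of 29 day 14 cells and in 0 of 31 control cells and stood at 191 CPM, at least 4279-fold higher, with 48.5% of its reads in 1 cell. Kirrel3, which helps form mossy fibre synapses, stood at 20.6 against 206 CPM, Ptprd, a receptor phosphatase of the presynaptic side, at 38.9 against 286 CPM, and Nlgn1, a neuroligin of excitatory synapses, at 33.6 against 105.8 CPM. Among 34 measured guidance genes, 4 (11.8%) were at least 2-fold higher and 11 (32.4%) at least 2-fold lower. All 3 measured Slit ligands were lower, Slit1 at 45.9 against 387 CPM, Slit2 at 0.00769 against 36.8 CPM and Slit3 at 38.9 against 103.96 CPM. The class 3 semaphorins Sema3a (42.1 against 0.0298 CPM) and Sema3e (37.1 against 1.12 CPM) were higher, and Sema5a (53 against 189 CPM) was lower. The control level of Sema3a and the day 14 level of Slit2 rest on 2 reads each.

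Of 25 measured axon growth genes, 4 (16%) were at least 2-fold higher and 2 (8%) at least 2-fold lower, with a median of 0.23. Both shares lay below those of all measured genes (23.8% and 15.8%). Gap43, the growth cone protein that marks sprouting axons, was read in 9 of 29 cells against 3 of 31, at 51.7 against 6.83 CPM (2.44 against 11.5 CPM in cells low in microglia markers), and Stmn3, a tubulin-binding stathmin, at 968 against 334 CPM. The 2 members at least 2-fold lower were Sox4, a factor of young neurons, at 4.20 against 31.3 CPM and Dpysl3, a collapsin response mediator of growing axons, at 56.8 against 220.1 CPM.

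Genes of the extracellular matrix lay on both sides. Of 19 measured members, 7 (36.8%) were at least 2-fold higher and 5 (26.3%) at least 2-fold lower, with a median of -0.15. The shares over all measured genes were 23.8% and 15.8%. Spock1 and Spock3, proteoglycans of the testican family, stood at 114.2 against 3.63 CPM and 1088 against 134 CPM, and Spock1 was read in 62.1% against 3.45% of thinned cells. Acan, aggrecan, the core proteoglycan of perineuronal nets, had a lowest, median and highest level of 0, 0.863 and 739.5 CPM at day 14 and 0, 0 and 107.1 CPM in controls and stood at 105.9 against 4.97 CPM. Nell1, a secreted ligand, stood at 215 against 1.399 CPM and Lgi2, a ligand of ADAM proteins at synapses, at 114.6 against 11.9 CPM. Sparc (132 against 451 CPM), Adamts1, a protease that cuts proteoglycans (138 against 411 CPM), and Has3, which makes hyaluronan (0.469 against 24.5 CPM), were lower, but against GFP virus cells Sparc (log2 ratio 2.95) and Has3 (0.12) were not. In cells under 1000 CPM of microglia markers (9 and 13 cells), Acan stood at 123.3 against 4.61 CPM, Spock3 at 963 against 145 CPM and Spock1 at 45.1 against 10.2 CPM.

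Respiratory chain genes of the nucleus were higher by a small margin, nearly all in 1 direction. Of 37 measured complex I genes, 10 (27%) were at least 2-fold higher and 0 at least 2-fold lower, against 23.8% and 15.8% of all measured genes. Of the 37, 33 lay above 0 and the median was 0.59. Of 35 genes of complex III, cytochrome oxidase and ATP synthase the numbers were 7 (20%), 0, 32 and 0.61. The shares at least 2-fold higher were thus near that of all measured genes. Ndufs1, an iron-sulphur subunit, stood at 314 against 87.7 CPM, Uqcrc1, a core subunit of complex III, at 629 against 278 CPM and Atp5a1, the alpha subunit of ATP synthase, at 1389 against 1020.3 CPM. Over all measured genes, 5234 of 9469 lay above 0. The complex I sum over the 29 cells had a Spearman rank correlation of 0.41 with reads per cell, and the other list 0.57, and median depth was higher at day 14. In glycolysis, Ldha, lactate dehydrogenase A, stood at 1029 against 358 CPM and Hk2, an inducible hexokinase, at 18.6 against 1.09 CPM, whereas Slc2a1 and Slc2a3, the glucose transporters, stood at 79 against 171 CPM and 330.2 against 613 CPM. The share of reads from mitochondrial genes ran from 0.000398% to 6.80% at day 14 (median 0.319%) and from 0.0598% to 4.03% in controls (median 0.823%).

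Genes of the circadian clock and of chromatin were among the lists below background. Of 17 measured clock genes, 3 (17.6%) were at least 2-fold higher and 7 (41.2%) at least 2-fold lower, with a median of -0.84. The repressors Per1 (51.1 against 134 CPM), Per2 (117.5 against 273 CPM), Per3 (10.8 against 35.7 CPM), Cry1 (17.2 against 85.6 CPM) and Cry2 (207 against 440.2 CPM) were all lower, and the output factor Dbp was higher (66 against 15 CPM). The time of day at which cells were taken was not used here, and against the 9 controls without J titles the list median was 0.65 rather than -0.84, with Per3 at 0.46. In cells low in microglia markers Per3 stood at 14 against 12.9 CPM. Of 22 measured histone and chromatin genes, 2 were at least 2-fold higher and 7 (31.8%) at least 2-fold lower, with Hdac9, a class II deacetylase, at 234 against 4.93 CPM in 58.6% against 10.3% of thinned cells, Dnmt1, the maintenance DNA methyltransferase, at 2.71 against 40.6 CPM, Dnmt3a at 29.4 against 93.9 CPM and Crebbp, the CREB-binding acetyltransferase, at 37.3 against 124.5 CPM.

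Stress lists had medians near the 0.14 of all measured genes. Of all measured genes, 23.8% were at least 2-fold higher and 15.8% at least 2-fold lower. Heat shock and unfolded protein response genes had a median of -0.03. Of 21 measured members, 2 (9.52%) were at least 2-fold higher and 2 (9.52%) at least 2-fold lower. Dnajb1 stood at 46 against 259 CPM and Hspd1 at 171 against 57.4 CPM. Proteasome genes had 5 of 31 (16.1%) higher and 0 lower, with a median of 0.24. Apoptosis genes had 2 of 10 (20%) in each direction, with a median of 0.31. Among them, Bnip3, a mitophagy receptor, stood at 285 against 57.2 CPM and Bcl2l11 (BIM) at 23 against 2.56 CPM. Metallothionein genes were level to slightly higher, with Mt1 at 381 against 395 CPM, Mt2 at 119.5 against 86.8 CPM and Mt3 at 134 against 108.8 CPM. In the BMP, activin and TGF-beta list, 7 of 23 (30.4%) were at least 2-fold higher and 7 (30.4%) at least 2-fold lower. Acvr1c, the receptor ALK7, stood at 50.3 against 0.551 CPM and Smad3 at 27.1 against 0.968 CPM (log2 ratio -1.65 against GFP virus cells). Acvr2a, an activin type II receptor, stood at 46.8 against 323 CPM.

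Interferon-stimulated genes had the highest median of all lists. Cells transcribe these genes when type I interferon activates a transcription factor complex that includes STAT2 and IRF9, and many of the products restrict viruses. Of 36 listed genes, 23 were measured. Of those, 22 (95.7%) were at least 2-fold higher, 0 were at least 2-fold lower, and the median was 4.13. A thinned day 14 cell held a median of 9 listed genes, against 1 in a control cell, and at day 1 the median was 1. The summed level ran over 12.5, 1628 and 9553 CPM in day 14 cells (lowest, median, highest) and over 0, 47.5 and 4186 CPM in control cells, so that the groups overlapped at their ends.

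Genes of that transcription factor complex were higher, with Stat2 at 80.3 against 16.6 CPM (in cells low in microglia markers 34.9 against 38.9 CPM) and Irf9 at 140.1 against 8.99 CPM (65.5% against 6.90% of thinned cells). Irf7, which amplifies the response, stood at 410.2 against 22.5 CPM. Among the effectors, Ifit1, which binds RNA with foreign caps, stood at 154 against 0.164 CPM, and the related Ifit3 at 86.1 against 0.0149 CPM, or 5787-fold higher (counting interval 1039 to 228590.0), with 1 control read. Xaf1, a partner of XIAP, stood at 88.2 CPM with 0 control reads, the RNA-degrading phosphorylase Pnpt1 at 164 against 1.43 CPM, the cytidine deaminase Apobec3 at 68.8 against 2.75 CPM (in cells low in microglia markers 0.190 against 3.44 CPM) and the ubiquitin-like modifier Isg15 at 33.8 against 12.4 CPM. Single cells could weigh heavily, since 1 day 14 cell held 42.1% of the Ifit1 reads.

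The interferon-stimulated response element was searched as its core, GAAA followed by any 2 bases and a second GAAA, on both strands of the 250 bases before each gene start in RefSeq. It was found in 8 of 18 measured members with a window (44.4%), in 3.08% of 7211 measured genes and in 2.98% of all 32851 windows. Windows of 4 members, which are shown as examples, hold it in capitals (RefSeq, GRCm38.p6, 5′ to 3′ on the strand of the gene). Paired TTTC is the same core on the other strand, and overlapping matches run together. GENCODE starts Apobec3 749 bases farther upstream, and its stretch, of which 30 bases are given, lies within an exon there.
Ifit1, chr19:34640760-34640838, plus strand: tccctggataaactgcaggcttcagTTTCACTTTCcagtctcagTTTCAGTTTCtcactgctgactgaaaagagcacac
Ifit3, chr19:34583348-34583441, plus strand: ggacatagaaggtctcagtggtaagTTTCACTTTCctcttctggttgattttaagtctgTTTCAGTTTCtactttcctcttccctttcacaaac
Isg15, chr4:156200850-156200921, minus strand: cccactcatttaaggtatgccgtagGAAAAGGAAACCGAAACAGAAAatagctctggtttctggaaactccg
Apobec3, chr15:79892258-79892287, plus strand: catcagttagTTTCCCTTTCtctttgcgat
Ifit1 and Ifit3, which lie close together on chromosome 19, each hold 2 matches within 156 bases of their RefSeq start and Isg15 holds 3 overlapping ones. The measured precursor genes of peptides matched this core in 1 of 6 windows.

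Antigen presentation genes followed. Of 15 measured genes of MHC class I presentation, 13 (86.7%) were at least 2-fold higher and 0 at least 2-fold lower, with a median of 2.04. H2-D1, a classical class I heavy chain, stood at 741 against 74.2 CPM in 75.9% against 10.3% of thinned cells, H2-K1 at 259 against 62.2 CPM and B2m, the light chain, at 1096 against 252 CPM. H2-Q7 (82.2 CPM) and H2-T23 (32.9 CPM), nonclassical chains, had 0 control reads. Class I genes are near-identical to each other, so reads may be split among them. The immunoproteasome subunits Psmb9 and Psmb10 stood at 15.6 against 3.27 CPM and 91.6 against 16.6 CPM. Psmb8 stood at 127.2 against 42.9 CPM in the sums, but the mean CPM over cells gave the opposite direction (log2 ratio -0.58). By contrast, Calr, a chaperone of class I loading, was not higher (278 against 356 CPM).

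Cytokines, complement and genes of reactive microglia were higher too. Of 17 measured cytokine and chemokine genes, 15 (88.2%) were at least 2-fold higher and 1 at least 2-fold lower (median 2.75), of 20 reactive microglia genes 16 (80%) and 0 (median 2.66), and of 15 complement and phagocytosis genes 12 (80%) and 0 (median 1.6). Il1a stood at 1404 against 44.2 CPM, Ccl4 at 1454 against 216 CPM and Ccl5 at 668 against 1.67 CPM, and Il1b at 222 CPM with 0 control reads and 63.1% of its reads in 1 cell. Cx3cl1, the chemokine that neurons themselves make, was level at 899 against 763 CPM. Apoe stood at 3942 against 297 CPM, Cst7 at 346 against 28.2 CPM and Clec7a, a receptor of reactive microglia, at 70.2 CPM with 0 control reads. Of the homeostatic markers, Tmem119 stood at 141 against 14.2 CPM and C1qc at 1039 against 283 CPM, and P2ry12 and Siglech at 90.2 against 197 CPM and 54.3 against 113.6 CPM. Both of the latter turned with the cells compared: the log2 ratio of Siglech was 1.70 against the 9 controls without J titles and 3.50 against GFP virus cells, and that of P2ry12 was 6.51 against GFP virus cells and 0.02 in cells low in microglia markers. Apoe stood at 5.14 against 63 CPM in cells low in microglia markers.

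The immune lists followed microglia RNA to different degrees. Over the 29 day 14 cells, each list's sum was compared with that of the homeostatic microglia markers, with no gene removed from either sum. A gene held by both lists raises the value, and genes of reactive microglia are themselves microglial. The Spearman rank correlation was 0.94 for reactive microglia genes, 0.93 for complement, 0.87 for cytokines and 0.84 for MHC class I. It was 0.79 for lysosome genes and 0.73 for interferon-stimulated genes. These values describe cells that all carry K titles and differ in depth. In the 9 day 14 and 13 control cells under 1000 CPM of microglia markers, the list medians were 0.62 for reactive microglia, -0.06 for complement, 0.00 for cytokines, 0.45 for MHC class I and 2.42 for interferon-stimulated genes. These cells were not matched between groups. Their microglia markers summed to 0, 5.87 and 313 CPM at day 14 and 0, 290 and 919 CPM in controls (lowest, median, highest). There the interferon sum reached 100 CPM in 8 of 9 day 14 cells (12.5, 659 and 3362 CPM as lowest, median and highest) and in 3 of 13 control cells (0, 14.4 and 402 CPM). In these cells Irf9 was read in 8 of 9 cells against 4 of 13 (151 against 5.07 CPM), Pnpt1 in 5 of 9 cells against 2 of 13 (247 against 3.19 CPM) and H2-D1 in 4 of 9 cells against 0 of 13 (70.7 against 0 CPM), while Cxcl10, Ifit3 and Psmb8 had 0 reads in both groups. In a library of this kind, RNA made by the cell and RNA drawn in beside it cannot be told apart, and the part of microglia in the immune lists was not tested beyond these values.

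**Figure D4:**
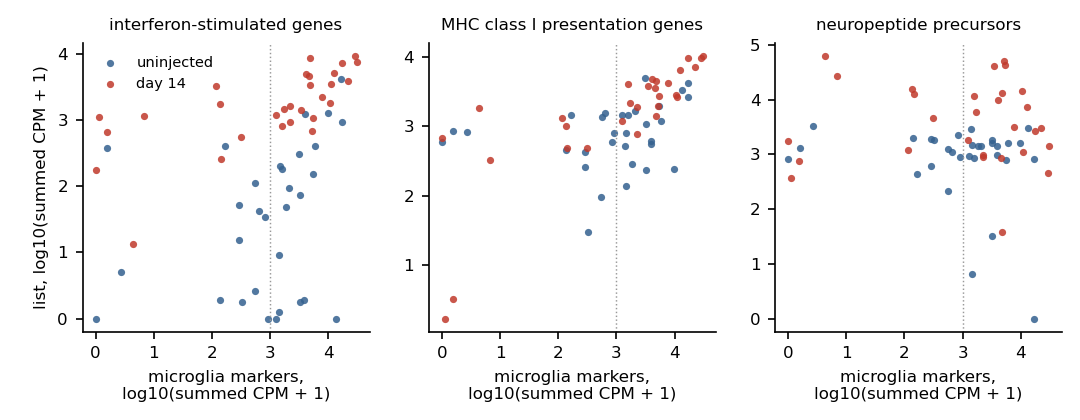
Summed level of 3 gene lists against the summed homeostatic microglia markers in each cell (both as log10 of summed CPM + 1) for 31 uninjected (blue) and 29 day 14 cells (red); the dotted line marks 1000 CPM. Left of that line, 8 of 9 day 14 cells and 3 of 13 control cells reach 100 CPM of interferon-stimulated genes, and the peptide sums have no common slope.

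Genes with the largest ratios that kept their sign under 3 ways of summing and were read in at least 40% of thinned cells of the higher group added further genes to those above. Higher were Medag, an adipogenesis gene, at 149 CPM (55.2% against 0% of thinned cells) and Fat3, a giant cadherin that shapes dendrites, at 40.1 CPM, both with 0 control reads. Brinp3, a secreted or membrane protein of neurons, stood at 88.1 against 0.417 CPM, Olfm2, an olfactomedin, at 127.6 against 2.01 CPM, Cit, citron kinase, at 73.2 against 0.908 CPM and the small heat shock gene Hspb3 at 26.1 CPM with 0 control reads. Dscr3 stood at 57.6 against 0.327 CPM. Genes of microglia in the same ranking were Gpr84 (155 CPM) and Gpnmb (112.2 CPM), both with 0 control reads, and Lcp2, a signalling adaptor (189 against 1.94 CPM), which was lower in cells low in microglia markers (0 against 5.45 CPM).

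Lower in that ranking was Ano3, an anoctamin of the channel and scramblase family, at 27.5 against 318 CPM (24.1% against 65.5% of thinned cells), with Rab26, a vesicle GTPase, at 14.7 against 109.5 CPM, Cd2ap, an actin adaptor, at 8.23 against 75.1 CPM and Palmd, palmdelphin, at 6.40 against 102.2 CPM. Cenpa, the histone of centromeres, stood at 20.6 against 212 CPM, Sap130, a subunit of the Sin3 repressor complex, at 2.74 against 48.3 CPM, Zfp653, a zinc finger gene, at 5.53 against 75.5 CPM, and Tnip2, an inhibitor of NF-kappa B, at 41 against 464 CPM. Sertm1 stood at 3.63 against 86 CPM, Sowaha at 13.7 against 139 CPM, Vstm2b at 6.19 against 56.9 CPM and Phxr4 at 0.442 against 45.2 CPM. Lars2, the mitochondrial leucyl-tRNA synthetase, was read in every cell of both groups and stood at 573 against 5812 CPM. Lars2 was itself counted among the genes that resemble ribosomal RNA. Those genes took 0.174% of day 14 reads against 4.23% of control reads. Their share was 5.46% in the J-titled controls and 1.58% in the other controls.

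The cells low in microglia markers, which were not matched in those markers between groups, were used to rank all measured genes again. With so few cells 1 cell can set a value. Highest there were Npy (2285 against 0.293 CPM), Sowahb (341 against 0 CPM), Inpp5b, an inositol phosphatase (295 against 0.168 CPM), Penk (9809.6 against 37.9 CPM), Gad2 (307 against 0.293 CPM) and Icmt, which methylates prenylated proteins (241 against 0.0419 CPM), and Cartpt stood at 2967 against 114.2 CPM. Lowest were Cdk14, a cyclin-dependent kinase (0 against 429 CPM), Tdo2 (0 against 281 CPM), the cohesin subunit Stag2 (0.0635 against 254 CPM), Kctd4 (0 against 195 CPM) and Zdhhc1, a palmitoyltransferase (0.495 against 232 CPM). Stag2 was higher, at a log2 ratio of 0.72, when all day 14 cells were set against the 9 controls without J titles, and at 0.20 against GFP virus cells. Others of these were Chn2, a Rac-inactivating chimaerin (223 against 0 CPM), Wdr48, a cofactor of deubiquitinases (263 against 0.251 CPM), and the kinase gene Mylk3 (194 against 0 CPM) above control, and Ryr1, a calcium release channel (0.0381 against 142 CPM), Aifm3 (0 against 116.3 CPM), Apaf1, the scaffold of the apoptosome (0 against 109.8 CPM), the ceramidase gene Acer3 (0.229 against 133 CPM) and the ligand Wnt7b (0.368 against 131 CPM) below it. Ryr1 over all day 14 cells had a log2 ratio of 0.70 against the J-titled controls.

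Genes ranked by how many cells held them, rather than by level, gave a different order. Cartpt was the only peptide precursor among the 15 largest gains, and Cck was the third largest loss although its summed levels were near each other. After Cartpt, the largest gains in thinned cells were Cpne7, a calcium-binding copine (72.4% against 3.45%; 404 against 58.4 CPM), H2-D1, Sorcs3, Zfp36, which destabilises cytokine mRNA (72.4% against 10.3%; 209 against 20.1 CPM), Irf9, Sccpdh (58.6% against 0%; 167 against 0.298 CPM), Spock1, Ptpn5, the striatal-enriched phosphatase STEP (86.2% against 31%; 487 against 76.8 CPM), and Rasgrp1, a Ras activator driven by calcium and diacylglycerol (62.1% against 6.90%; 242 against 28.4 CPM). Ccl12, a chemokine (58.6% against 6.90%; 353 against 51 CPM), and Tmbim4, a Golgi protein that limits cell death (69% against 17.2%; 107.2 against 17.6 CPM), followed.

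The largest losses were Cdk14 (6.90% against 69%; 4.07 against 324 CPM), Npas4, Cck, Itpr1, the IP3 receptor (10.3% against 58.6%; 27.1 against 57 CPM), Igsf3 (6.90% against 51.7%; 2.10 against 27.1 CPM), Sox12 (10.3% against 55.2%; 6.08 against 40.4 CPM), Plk5, Lcorl (3.45% against 48.3%; 0.623 against 326 CPM), Camk2n1 and Faim2, an inhibitor of Fas-induced death (44.8% against 86.2%; 71.5 against 310.2 CPM). Slc4a4, a sodium bicarbonate cotransporter (20.7% against 62.1%; 20.3 against 178 CPM), Kdm2a, a histone demethylase (27.6% against 69%; 49.8 against 118.1 CPM), Khsrp, a factor of mRNA decay (24.1% against 65.5%; 22.1 against 33.3 CPM), and Kctd4 (27.6% against 69%; 36.1 against 308 CPM) were among them. Zfp36 was not higher in cells low in microglia markers (22.6 against 27.3 CPM).

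**Figure D5:**
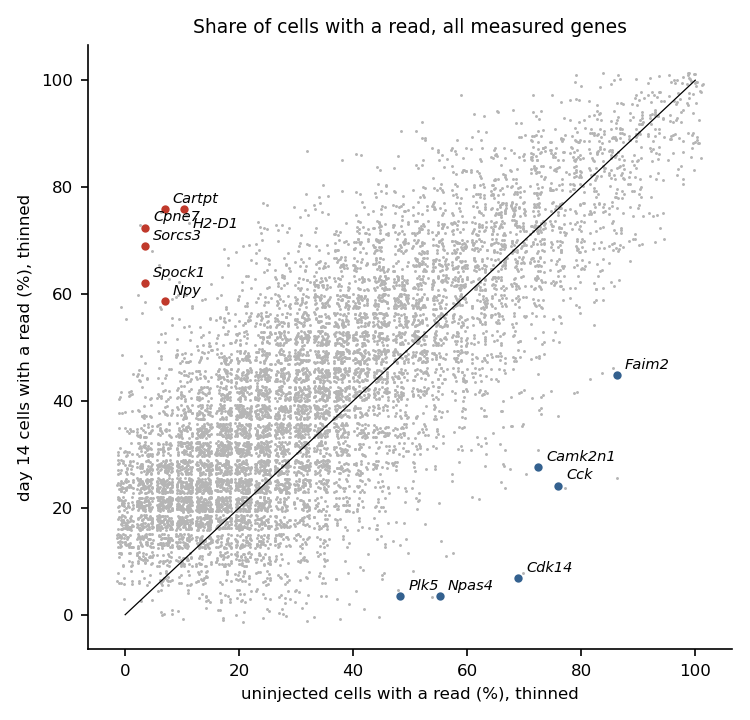
Share of thinned cells with a read at day 14 against the share in uninjected cells for 9469 measured genes (grey, 1 point per gene, spread by a small random offset), with 6 genes gained (red) and 6 lost (blue) and the line of equality. Cartpt lies at 75.9% against 6.90% and Cdk14 at 6.90% against 69%.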

How the data were processed

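Patch-seq libraries of single granule cells were sequenced and summarised by the submitters. The authors deposited 1 table of read counts per gene and cell, in whole numbers, and 1 table of scaled counts, a signal equal to the counts times 1 factor per cell. Per the submitters' processing notes, Trimmomatic, STAR, featureCounts and the GRCm38 build were used, with no versions, roles or use of strand given in the sources used here, so reads of overlapping or antisense genes cannot be told apart, and no molecular identifiers were counted.

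Groups follow the labels. Of 32 control cells labelled Passed, 31 had a column, and 1 was not analysed here. CPM are the group's summed reads of a gene over its summed total. Measured genes were read in 20% or more of either group's cells and reached 5 CPM in 1 group. Cells were thinned to 100000 reads with a fixed seed. A fold against 0 reads was computed against 3 counts over the group and is a lower bound. At 1 to 3 counts a fold carries its counting interval. Poisson and Clopper-Pearson intervals are exact, at 95%, and cover counting error only. Genes named are, beside members of lists with a described role, the 25 highest and 25 lowest measured genes by the smallest of 3 log2 ratios (sums, mean CPM over cells, thinned cells) that keep their sign against both kinds of control title and are read in at least 40% of thinned cells of the higher group, the 15 largest gains and losses in share of thinned cells, and the 10 highest and lowest in cells under 1000 CPM of microglia markers, leaving out ribosomal protein, mitochondrial, pseudo, predicted and Riken genes. Some genes that meet these rules are not reported here. Members and gene lists were chosen with earlier results of these data known. Gene coordinates are from GENCODE M21 on GRCm38, and promoter windows from RefSeq (GRCm38.p6). The ratios were tested on simulated counts with known changes. Python 3.11.15, numpy 2.4.6, pandas 2.3.3 and scipy 1.17.1 were used, with edgeR 4.0.16 (TMM) and DESeq2 1.42.0 (median of ratios) in R 4.3.3 for the scaling alternatives only, with no test. Alternatives covered scaling, level filters, thinning, the choice of control cells, cells low in microglia markers and the deposited scaled table, whose sum was added after the data were seen.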

Additional observations from a re-analysis of the deposited data

How the results depend on the processing

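No paired analysis was possible because the cells carry no replicate numbers that pair the groups. Of 18 alternatives, these moved the counts of genes at least 2-fold apart (2258 higher, 1495 lower of 9469) by over 1.5 times: genes of any level (3977 higher, 2616 lower), genes read in 50% of cells and at 20 CPM (710 and 520, of 4360), the 9 controls without J titles (3436 higher) and cells under 1000 CPM of microglia markers (2438 lower). TMM and median-of-ratios scaling moved the median of all genes from 0.14 to 0.04 and 0.02. Of 25 list medians at least 0.5 in size, 10 changed sign in at least 1 alternative, as did 17 of the 20 smaller ones, and the cause was not tested. By mean CPM over cells and by thinning, mossy cell markers came to -0.0754 and -0.05534, and from the deposited scaled table to -0.0754 (identical by construction) and, summed, -0.07901. Metabotropic glutamate receptors came to 0.1031 thinned, 1.149 for genes of any level and 0.1417 for the stricter level, interneuron markers to -0.01578 for genes of any level and astrocyte markers to 0.4034 for the stricter level. Against the controls without J titles, rapid transcription factors came to 0.06652 and clock genes to 0.6526. Oligodendrocyte markers came to -0.874 with failed controls added. Id and helix-loop-helix genes came to -0.2632 against GFP virus cells and -0.1604 in cells low in microglia markers, where homeostatic microglia markers came to -0.2556 and complement genes to -0.05923. Of 224 named genes at least 2-fold apart, 26 changed sign in at least 1 of 16 alternatives. Their log2 ratios were, by mean CPM over cells and from the mean of the scaled table, Psmb8 -0.5849, and from its sums Psmb8 -1.378. Against J controls the ratio was Ryr1 0.7007, and against the other controls the ratios were Egr1 0.1455, Egr4 0.216, Grik4 0.3829, Kcnk2 1.008, Pcsk2 0.1652, Per3 0.4561, Siglech 1.697, Stag2 0.7172. Against GFP cells they were Grik4 0.2356, Has3 0.1157, P2ry12 6.505, Siglech 3.497, Smad3 -1.647, Sparc 2.95, Stag2 0.2021, Tcf12 -0.7844, and in cells low in microglia markers Apobec3 -1.898, Apoe -3.38, Egr3 0.6335, Gap43 -1.861, Gfap -4.563, Lcp2 -2.689, Neurod6 -5.142, P2ry12 0.0182, Per3 0.1056, Sorcs1 -0.2563, Stat2 -0.1532, Tcf12 -0.1955, Tcf3 -2.922, Zfp36 -0.2637. Depth limits the controls most, where 3 reads over the group equal 0.0447 CPM, against 0.0115 CPM at day 14.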
